A study of Mus musculus with 6 samples.

Results

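The genes described here are 9 genes of tight junctions and of epithelial-type adhesion, Ocln, Lsr, Marveld2, Cldn1, Tjp1, F11r, Cdh1, Epcam and Cgn, measured in resident macrophages of the mouse peritoneal cavity from wild type mice and from mice labelled as deficient in Gata6, a zinc finger transcription factor gene, through a floxed allele. They are 9 of the 18194 genes named by a single symbol on the array, and all probe sets whose annotation gives only that symbol were taken, 17 in all. They were chosen by their measured differences between Gata6-KO and Gata6-WT on these same arrays. The differences between the genotypes in these 9 genes are therefore descriptions, and the fit's calls on them support nothing.

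The groups were 3 arrays of Gata6-KO and 3 arrays of Gata6-WT cells from 7-week-old, sex-matched mice, each array holding the RNA of a pool of 2 to 3 mice. In both groups the peritoneal cells were washed out, pooled and sorted by flow cytometry for high CD11b with MHC class II low or absent. The Gata6-KO mice carried a floxed allele. Neither the Cre driver nor the floxed exon is stated in the sources used here.

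Tight junctions seal the space between neighbouring epithelial cells. Their strands are built from claudins (such as that of Cldn1) and from the MARVEL-domain proteins occludin (Ocln) and tricellulin (Marveld2), with tricellulin placed at tricellular corners by angulin-1, the product of Lsr. The immunoglobulin-type protein JAM-A (F11r) lies beside the strands, and ZO-1 (Tjp1) and cingulin (Cgn) link them to actin from the cytoplasmic side. E-cadherin (Cdh1) and EpCAM (Epcam) are homophilic adhesion molecules of epithelia. These genes are best known from epithelial sheets, whereas the sorted cells are macrophages, which do not form sealed sheets.

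Of the 9 genes, Ocln, Lsr and Marveld2 had lower signals on all 3 Gata6-KO arrays than on any Gata6-WT array, by 21.6-fold, 8.59-fold and 2.50-fold on the log2(signal + 16) scale. The Gata6-KO signals of Lsr and Marveld2 were below the filter's signal of 47.5 and in a range where other probe sets read little or no transcript, so their folds depend on the pseudocount (5.00 to 11.6 and 1.74 to 3.19 with 64 and 1) and are not measured levels of what remained. Their promoters are shown because these genes were lower together. Sequences are RefSeq's for build GRCm38.p6, each running from 250 bases before to 50 bases after an annotated start, with the E-box word CACCTG in capitals, which reads CAGGTG on the other strand. That word is known as a site bound by the ZEB and SNAI repressors of epithelial genes. The windows of Ocln are for 2 annotated starts, and 80 bases are common to both.
Ocln, start 1, chr13:100552669-100552968, minus strand: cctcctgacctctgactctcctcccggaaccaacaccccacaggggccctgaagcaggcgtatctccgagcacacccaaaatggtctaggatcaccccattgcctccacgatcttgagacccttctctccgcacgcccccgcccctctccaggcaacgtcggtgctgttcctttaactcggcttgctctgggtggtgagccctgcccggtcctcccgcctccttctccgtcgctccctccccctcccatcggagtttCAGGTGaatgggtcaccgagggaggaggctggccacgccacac
Ocln, start 2, chr13:100552449-100552748, minus strand: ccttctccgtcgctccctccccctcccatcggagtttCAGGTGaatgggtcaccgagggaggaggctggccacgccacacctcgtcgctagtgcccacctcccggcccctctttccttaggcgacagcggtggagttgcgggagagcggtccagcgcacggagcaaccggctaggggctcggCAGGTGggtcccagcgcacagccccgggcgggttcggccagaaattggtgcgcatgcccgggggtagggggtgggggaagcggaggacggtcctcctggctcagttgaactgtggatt
Lsr, chr7:30973420-30973719, minus strand: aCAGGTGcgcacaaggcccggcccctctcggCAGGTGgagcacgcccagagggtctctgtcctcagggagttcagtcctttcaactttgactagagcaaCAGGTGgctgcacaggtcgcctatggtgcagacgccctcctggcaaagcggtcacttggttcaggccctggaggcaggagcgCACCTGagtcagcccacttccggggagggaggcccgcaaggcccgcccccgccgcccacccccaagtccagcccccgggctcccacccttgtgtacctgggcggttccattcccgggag
Marveld2, start 1, chr13:100616922-100617221, minus strand: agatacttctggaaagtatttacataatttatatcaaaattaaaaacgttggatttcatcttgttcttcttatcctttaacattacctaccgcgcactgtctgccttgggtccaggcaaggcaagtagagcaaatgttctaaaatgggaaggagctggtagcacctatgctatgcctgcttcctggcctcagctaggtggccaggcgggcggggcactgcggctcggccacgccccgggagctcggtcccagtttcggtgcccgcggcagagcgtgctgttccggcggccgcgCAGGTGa

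The 4 words of Lsr begin at -249, -219, -151 and -69 from its start. In Ocln the word at 7 of the first window is the one at -213 of the second, which holds another at -68. The Marveld2 word begins at 43 from its first start and, as the same site, at 16 from a second start whose window shares 273 bases. Promoter windows were found for 8 of the 9 genes, 10 windows in all. Beyond these 3 genes, F11r had 1 word and Epcam had 2, so that 5 of the 8 genes held the E-box word. Over all 32851 mouse promoter windows 20.2% held it, and by gene 22.6%. Windows with a GC content in the range of the 10 (54.0% to 70.3%) held it in 22.9%. Only 18 of the 32851 windows held 4 or more, the window of Lsr among them. The GATA words searched began with A (AGATAA or, with a final G, AGATAG) or with T (TGATAA or, with a final G, TGATAG). Searched on both strands, and not overlapping the E-box word, they were in 29.8% of all windows and in 2 of the 10, those of Cldn1 and Tjp1. These matches are letters in a window, and no binding was measured here. The genes were chosen by their measured differences, so nothing is read from these shares. The part of ZEB or SNAI repressors in the differences was not tested.

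**Figure D1:**
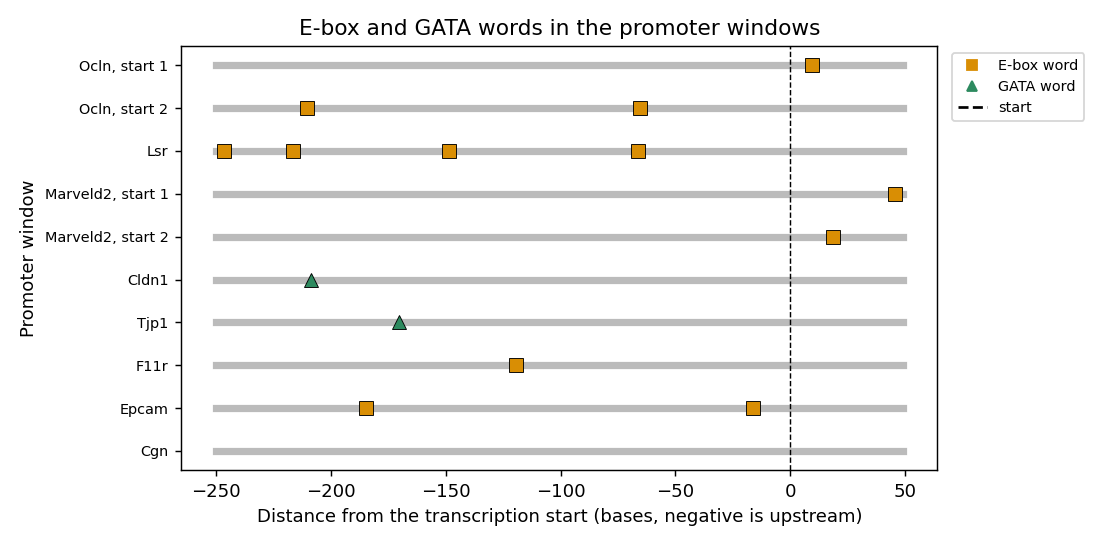
Position of each E-box word (squares) and GATA word (triangles) in the 10 promoter windows of 8 genes, in bases from the annotated start. Lsr holds 4 E-box words, and GATA words are seen only in the windows of Cldn1 and Tjp1.

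The signals below are linear intensities of probe sets, scaled by the authors to a common trimmed mean, and differences are Gata6-KO minus Gata6-WT in log2(signal + 16). The pseudocount of 16 makes differences of low signals smaller than they would be without it. Where a gene had several probe sets, the tested one with the highest mean is reported first. Of the 17 probe sets, 8 passed the filter on low signals (a mean of 5.99 on the log2 scale, a signal of 47.5) and 9 did not, which left Cldn1 and Cdh1 with none tested.

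Median signals lay between 79.7 and 88.5 over the 6 arrays. Gata6 itself fell from 6372 ± 938 to 3497 ± 828 at its probe set of highest signal and from 423 ± 76.6 to 180 ± 6.47 at that of lowest signal (SD, n = 3; limma adjusted p = 0.011 and 0.0043), while the other had 1775 ± 443 and 1758 ± 399. Whether these probe sets lie in the deleted part is not known here. Xist, expressed from the inactive X chromosome, had signals of 11158 to 13749 on 4 arrays but 102 and 113 on replicate 1 of both genotypes. The Y-linked genes Eif2s3y, Kdm5d and Uty gave 1.22 to 55.3 on the 4 high-Xist arrays, which shows what these probe sets read with little or no transcript, and 656 to 3674 on the low-Xist arrays. Differences are given below for the high-Xist arrays (2 against 2) and the low-Xist arrays (1 against 1, with no test) too. The ratio of 3' to 5' signal of the Gapdh control probe sets, a measure of RNA quality, was 0.697 to 0.722 in Gata6-KO and 0.742 to 0.778 in Gata6-WT, without overlap. The same ratio for the beta-actin control was 1.377 to 1.431 in Gata6-KO and 1.432 to 1.498 in Gata6-WT, apart by a very small margin. The part of RNA quality in the differences below was not tested.

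The macrophage markers Csf1r, Lyz2 and Itgam were high in both genotypes, with means of 57372 and 55393, 71833 and 72536, and 13035 and 11393 in Gata6-KO and Gata6-WT. Of the 8 macrophage markers Adgre1 (means of 12149 in Gata6-KO and 43123 in Gata6-WT), Cd68 (9509 and 12670) and Fcgr1 (148 and 1110) fell. Mertk (6420 and 4768) rose. Cd14 (26878 and 29320) was lower on all Gata6-KO arrays but did not pass (limma adjusted p = 0.48). The summed signal of the 8 was 191859 to 205314 in Gata6-KO and 209307 to 246544 in Gata6-WT. Epithelial markers stayed low: all 10 were on the array and their signals summed to 479 to 621 in Gata6-KO and 562 to 641 in Gata6-WT, with none of the 5 tested past the threshold. The 9 mesothelial markers summed to 241 to 349 and 334 to 414, with the defining marker Msln at 8.9 to 36.1 and 26.5 to 55.7. No mesothelial marker passed the test among the 2 tested. Of these Krt7, also on the epithelial list, was lower on all Gata6-KO arrays (70.7 and 137, limma adjusted p = 0.11). Upk1b overlapped (75.8 and 57.5, limma adjusted p = 0.75). The epithelial marker Cldn7, below the filter, was higher on all Gata6-KO arrays (57.0 and 28.2). Sums of dendritic cell markers (6 of 7 on the array) were 315 to 583 in Gata6-KO and 515 to 1324 in Gata6-WT. Of these Cd209a fell (117 and 658, limma adjusted p = 0.010), while the others had higher means in Gata6-KO. Zbtb46 (185 and 135) did not pass (limma adjusted p = 0.78). Flt3 (36.9 and 18.0), Kit (50.7 and 44.1) and Ccr7 (5.72 and 4.15) overlapped and were not tested. Xcr1 (59.7 and 29.6), not tested, was higher on all Gata6-KO arrays. Neutrophil markers (4 of 6 on the array) summed to 488 to 803 and 939 to 1620, where S100a8 fell while S100a9 gave a mean of 17.9 and 4.11. The 6 mast cell markers summed to 326 to 494 and 510 to 610, without overlap. Among them Cpa3 (159 and 280, limma adjusted p = 0.051) and Cma1 (79.5 and 198, adjusted p = 0.083) were lower on all Gata6-KO arrays. Fcer1a, not tested, had means of 6.23 and 14.8. Tpsb2 (71.7 and 19.2), Kit (50.7 and 44.1) and Mcpt4 (21.2 and 18.8), not tested, had higher means in Gata6-KO with overlapping groups. The part of these cells in the results was not tested.

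Ocln, which encodes the strand protein occludin, had signals of 41.6, 171 and 95.6 on Gata6-KO replicates 1, 2 and 3 and of 2121, 2466 and 2258 on the Gata6-WT replicates. All Gata6-KO arrays lay far below all Gata6-WT arrays, which were close together. The means were 103 ± 65.3 and 2282 ± 174 (SD, n = 3), a log2 difference of -4.43 ± 0.35 (SE), and only 4 of the 12511 genes tested had a more negative one. A second probe set gave 129.9, 41.0 and 100.3 in Gata6-KO against 778, 936 and 784 in Gata6-WT, with a log2 difference of -3.10 ± 0.31 (8.55-fold). Both probe sets separated the genotypes, but the order of the Gata6-KO arrays differed between them: replicate 1 was lowest at the first and highest at the second. In the high-Xist arrays the differences were -4.04 and -3.42, and in the low-Xist arrays -5.21 and -2.44. The fold at the first probe set depended on the pseudocount and was 25.6 with 1 and 14.8 with 64. In sorted bulk cells, fewer cells with the transcript and less transcript per cell cannot be told apart.

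Marveld2 encodes tricellulin, the MARVEL protein of tricellular junctions. Its single probe set had 30.3, 32.0 and 31.1 in Gata6-KO and 116, 106 and 85.1 in Gata6-WT. The Gata6-KO arrays were nearly identical and all below the Gata6-WT arrays, although the signals of both groups were low. The log2 difference was -1.32 ± 0.31 (2.50-fold, and 3.19-fold and 1.74-fold with pseudocounts of 1 and 64), with -1.23 in the high-Xist and -1.51 in the low-Xist arrays. In the fit over all probe sets limma gave an adjusted p of 0.025, which became 0.055 to 0.096 when any single array other than Gata6-WT replicate 3 was left out and 0.051 with the replicate number as a block.

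Lsr encodes angulin-1, also called the lipolysis-stimulated lipoprotein receptor, which recruits tricellulin to cell corners. Signals were 45.6, 27.5 and 41.4 in Gata6-KO and 411, 367 and 582 in Gata6-WT. The groups were well apart, and the lowest Gata6-WT array lay several times above the highest Gata6-KO array. The means of 38.2 ± 9.47 and 453 ± 114 (SD, n = 3) gave a log2 difference of -3.10 ± 0.26, with -3.26 in the high-Xist and -2.79 in the low-Xist arrays. The 8.59-fold difference was 11.6-fold with a pseudocount of 1 and 5.00-fold with 64. The other Lsr probe set read 5.16 to 11.8 in Gata6-KO and 6.66 to 37.1 in Gata6-WT, below the filter and with overlapping groups.

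Ocln and Marveld2 lie close together on the genome: the RefSeq gene table lists 2 genes between them, neither of them protein-coding. Of the other genes within 3 places of either, Rad17, a checkpoint clamp loader gene next to Marveld2 but for 1 small nuclear RNA gene, was the 1 with a value here. Rad17 had 1964 ± 153 in Gata6-KO and 2226 ± 297 in Gata6-WT, a log2 difference of -0.17 ± 0.13 (limma adjusted p = 0.45). Its groups overlapped, unlike those of its neighbours.

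Tjp1, which encodes the scaffold ZO-1, lay the other way. Its signals were 558, 910 and 1122 in Gata6-KO and 578, 526 and 494 in Gata6-WT. Replicates 2 and 3 of Gata6-KO were above all Gata6-WT arrays and replicate 1 was within their range. The log2 difference was 0.63 ± 0.23 (95% interval 0.11 to 1.14, limma adjusted p = 0.12). It was 0.96 in the high-Xist arrays and -0.05 in the low-Xist arrays, a contrast that a single low-Xist array per genotype cannot settle. Without Gata6-KO replicate 1 the value was 0.91 with an adjusted p of 0.014.

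Cgn encodes cingulin, another plaque protein. At the tested probe set it had 105, 30.3 and 46.0 in Gata6-KO and 30.4, 78.7 and 28.1 in Gata6-WT, and 13.8 to 86.1 and 13.9 to 53.0 at the other. The groups overlapped at both, and the log2 difference at the tested one was 0.28 ± 0.48 (95% interval -0.80 to 1.37).

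F11r, for JAM-A, had 84.7, 71.3 and 62.0 in Gata6-KO and 42.7, 35.0 and 28.2 in Gata6-WT. All Gata6-KO arrays were above all Gata6-WT arrays, at signals near the filter, with a log2 difference of 0.79 ± 0.34 (limma adjusted p = 0.18). That probe set is of the x type, in which some probes can also bind other transcripts. The other F11r probe set, at 3.98 to 39.6 and 6.96 to 35.0, was below the filter with overlapping groups. Of the 4 Cldn1 probe sets, none was tested. The one with the highest mean had 47.9, 37.1 and 51.8 in Gata6-KO and 18.5, 37.0 and 16.9 in Gata6-WT, apart by a very small margin, while the other 3 overlapped at 0.895 to 42.7. With no filter its log2 difference was 0.65 ± 0.38 (limma adjusted p = 0.44).

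The adhesion genes of epithelia showed no separation at their reported probe sets. Epcam had 227, 118 and 93.8 in Gata6-KO and 151, 267 and 173 in Gata6-WT at a probe set of the x type (log2 -0.44 ± 0.33, limma adjusted p = 0.45). Its difference was -0.93 in the high-Xist and 0.54 in the low-Xist arrays, which a single low-Xist array per genotype cannot settle either. A second Epcam probe set, not tested, read 4.42 to 6.84 in Gata6-KO and 9.73 to 40.8 in Gata6-WT. Cdh1 read 24.3, 2.18 and 15.5 in Gata6-KO and 33.7, 1.58 and 3.12 in Gata6-WT, low and overlapping (log2 0.16 ± 0.47 with no filter).

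**Figure D2:**
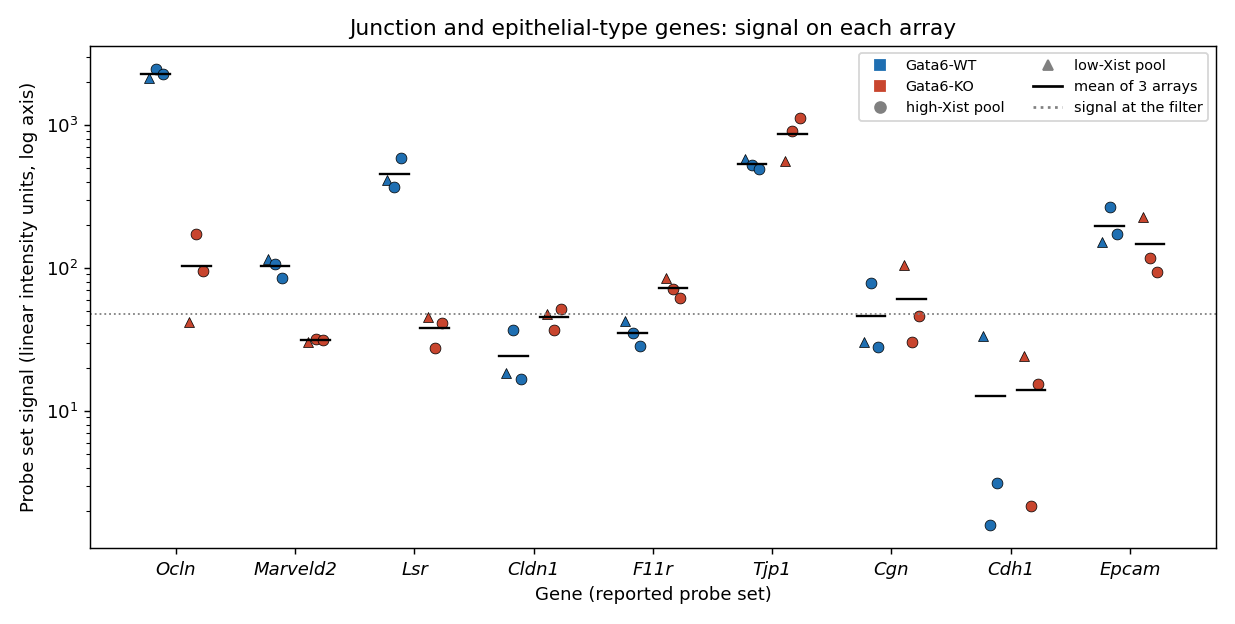
Signal of the reported probe set of each of the 9 genes on the 6 arrays (log axis, linear intensity units), Gata6-WT in blue and Gata6-KO in red, with the mean of 3 arrays as a bar and the filter's signal of 47.5 dotted. For Ocln, Marveld2 and Lsr the Gata6-KO arrays lie below all Gata6-WT arrays, and for F11r and, by a very small margin, Cldn1 above them.

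Of the 7 genes tested, 3 passed the threshold of the fit, all lower in Gata6-KO, against 13.1% of the 12511 genes tested in either direction and 7.46% in this direction. Nothing is read from that count, since the genes were chosen with this contrast known. Their median log2 difference was -0.44, beside -0.036 over all genes tested. The groups did not overlap for 5 of the 9 genes at their reported probe sets (4 of the 7 tested), beside 34.4% of all genes tested. Of the strand genes, Ocln and Marveld2 were lower on all Gata6-KO arrays. Cldn1 was higher on all of them by a very small margin at its reported probe set, below the filter, and overlapped at its others.

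**Figure D3:**
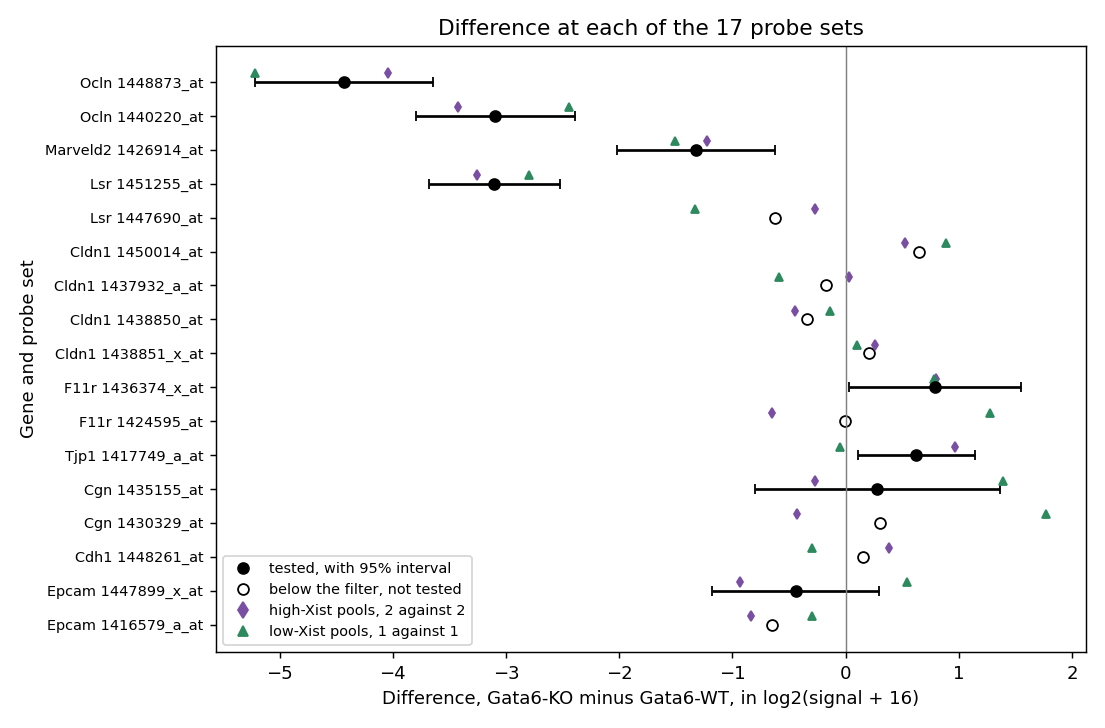
Difference between the genotypes in log2(signal + 16) at all 17 probe sets, with the 95% interval of the limma fit for the 8 tested (filled) and without one for the 9 below the filter (open). Diamonds show the high-Xist and triangles the low-Xist pools, which lie on opposite sides of 0 for the reported probe sets of Tjp1, Cgn, Cdh1 and Epcam.

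The genes whose log2 signals followed Ocln most closely over the 6 arrays were Serpinb2 (Pearson r = 0.999), Plcb4 (0.998), Cd81 (0.998), Gsk3a (0.998) and Selp (0.997). Serpinb2 encodes a plasminogen activator inhibitor and fell from 37630 ± 2150 to 6005 ± 1973, and Plcb4, for a phospholipase C, fell from 1324 ± 53.2 to 229 ± 70.1. These correlations rest mainly on the difference between the genotypes, which all 6 arrays share, and have no test. Marveld2 followed Ocln at 0.965, with 190 genes closer, and Lsr at 0.943, with 399 closer. The other tested genes described did not: Epcam was at 0.35, Cgn at -0.39, Tjp1 at -0.60 and F11r at -0.94.

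Other genes of cell junctions went both ways. Of 120 further genes in 7 lists, 114 were on the array and 71 were tested, of which 7 fell, 5 rose and 59 did not pass (16.9% called, beside 13.1% of all genes tested, of which 7.46% were lower and 5.61% higher). Their median log2 difference was -0.0027. In the claudin and occludin family 1 of 9 tested genes passed: Marveld1, another MARVEL gene, rose from 7244 ± 1102 to 13130 ± 2552 (log2 0.85 ± 0.17, limma adjusted p = 0.012), at 2 of its 4 tested probe sets. The reported one is of the x type, and its call was lost without the variance trend (limma adjusted p = 0.070). The other to pass, not of that type, had means of 328 in Gata6-WT and 554 in Gata6-KO. A further one not of that type had 1200 and 1716, with overlapping groups (limma adjusted p = 0.15). None of the 8 tested claudins passed, with Cldn12 at 168 ± 39.8 in Gata6-WT and 81.2 ± 17.9 in Gata6-KO (adjusted p = 0.062).

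Among junctional immunoglobulin proteins 1 of 8 passed. Jam2, which encodes JAM-B of endothelial junctions and is a relative of F11r, had 1764, 4317 and 1338 in Gata6-KO and 245, 328 and 88.2 in Gata6-WT. Jam2 rose at all 5 of its tested probe sets, by 10.4-fold at the reported one (log2 3.37 ± 0.49, limma adjusted p = 0.0023). The groups were apart despite the spread within Gata6-KO. The 6 endothelial markers, all on the array, summed to 346 to 437 in Gata6-KO and 336 to 396 in Gata6-WT. Of these, Kdr (158 and 163) and Cldn5 (99.2 and 109, means in Gata6-KO and Gata6-WT) were tested and did not pass. Below the filter, Tek was higher on all Gata6-KO arrays (60.1 and 32.8), Cdh5 (40.5 and 37.4) and Pecam1 (20.7 and 11.2) overlapped, and Tie1 was at 2.07 and 2.87. The part of endothelial cells in the rise of Jam2 was not tested.

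In the plaque and polarity list 3 of 22 fell and 0 rose at their reported probe sets. For Amot 1 of the 2 tested probe sets passed, not the reported one (limma adjusted p = 0.95 at the reported one). Micall2, whose product binds the GTPase Rab13 and takes part in the transport of occludin to junctions, fell from 268 ± 82.1 to 59.7 ± 20.8 (3.74-fold, limma adjusted p = 0.0048). Its Gata6-KO signals of 37.1 to 78.2 were low, and the fold was 4.47 with a pseudocount of 1 and 2.65 with 64. Pard6a, a polarity adaptor, and Afdn, which encodes the nectin-binding protein afadin, fell by 0.64 and 0.51 on the log2 scale; both calls were lost in each of the 6 fits that left out 1 array (limma adjusted p 0.071 to 0.14 and 0.056 to 0.12). Cgnl1, the relative of Cgn, had 7390 ± 370 in Gata6-WT and 5913 ± 406 in Gata6-KO (limma adjusted p = 0.078).

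Of 11 tested cadherin and adherens junction genes 2 fell and 1 rose. Vcl, for the actin linker vinculin, fell from 2361 ± 185 to 1535 ± 66.0, and Zyx, for zyxin, from 1090 ± 34.0 to 733 ± 111 at 1 of its 2 tested probe sets, a call kept in 1 of the 6 fits that left out 1 array (limma adjusted p 0.031 to 0.11). Pkp4, a plakophilin of the p120 catenin family, rose from 1629 ± 41.7 to 3321 ± 369 (limma adjusted p = 0.00057), as it did at its other tested probe set. The catenins Ctnna1 and Ctnnb1 had 11261 ± 404 and 13749 ± 857 in Gata6-WT and 13073 ± 900 and 15479 ± 521 in Gata6-KO (limma adjusted p = 0.22 and 0.31); 1 of the 3 tested probe sets of Ctnna1, not the reported one, passed. In the desmosome list Ppl, for the plakin periplakin, was the 1 of 3 to pass and rose from 168 ± 19.3 to 584 ± 92.0 (3.24-fold, limma adjusted p = 0.00037).

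Of 12 tested epithelial membrane, protease and transcription genes, St14 passed. St14, which encodes the membrane serine protease matriptase, had 45.7, 126 and 127 in Gata6-KO and 427, 369 and 640 in Gata6-WT. It fell 4.47-fold, with no overlap between the groups (log2 -2.16 ± 0.35, limma adjusted p = 0.0042). The fold was 5.11 with a pseudocount of 1 and 3.35 with 64. Its inhibitor genes Spint1 and Spint2 had log2 differences of -0.40 and -0.76 (limma adjusted p = 0.56 and 0.065), and 1 of the 2 tested probe sets of Spint2, not the reported one, passed.

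Of the 6 tested genes in the list of repressors of epithelial junction genes, Zeb1 fell and Tcf4 rose. Zeb1 fell from 182 ± 67.7 to 76.7 ± 15.5 (limma adjusted p = 0.0498) at 1 of its 3 tested probe sets, the others having overlapping groups (adjusted p = 0.55 and 0.53), a call lost in each of the 6 fits that left out 1 array (0.064 to 0.15). Tcf4 rose by 0.57 on the log2 scale, from 2597 ± 486 to 3816 ± 330, at 5 of its 6 tested probe sets; the call was kept in 1 of those 6 fits (limma adjusted p 0.046 to 0.13). Zeb2 had 5663 ± 605 in Gata6-WT and 7371 ± 1471 in Gata6-KO, with overlapping groups (limma adjusted p = 0.18). Neither the call of Zeb1 nor that of Tcf4 thus held in all 6 such fits.

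**Figure D4:**
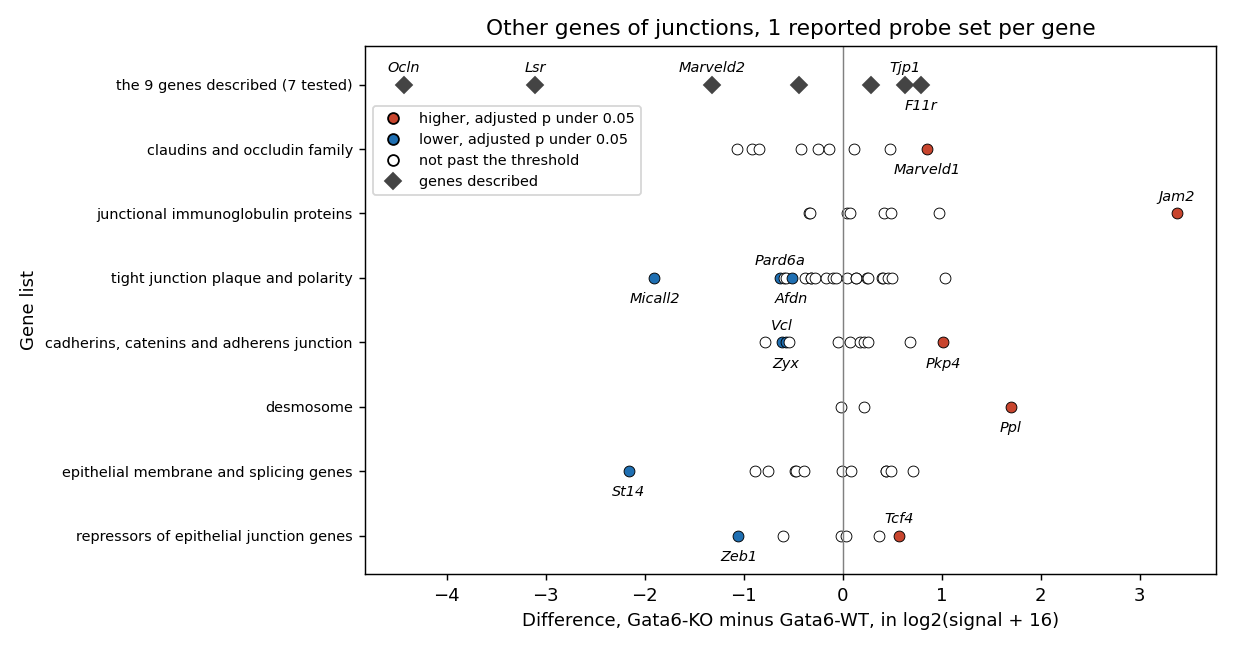
Difference between the genotypes in log2(signal + 16) for the 7 tested genes described (diamonds) and for 71 other tested genes in 7 lists, with genes higher (red) or lower (blue) at an adjusted p under 0.05 named. The 7 lower and 5 higher genes lie among 59 that did not pass.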

How the data were processed

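Each of the 6 arrays held 1 pool. The authors deposited linear intensities of 45101 probe sets, made with MAS5 and affy per the submitters' processing notes. The mean without the highest and lowest 2% was the same on every array. Subtraction of mismatch probes adds noise to low signals, and detection calls were not used here. Genes were named from the array annotation: 34958 probe sets had 1 symbol, 932 several and 9211 none here; 34754 matched the GRCm38.p6 gene table. The values carry no genome build.

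Values were used as log2(signal + 16) with no further normalization. Without 64 control probe sets, those with a mean above the 40th percentile (27022) entered a fit in limma 3.58.1 under R 4.3.3 (trended eBayes, two-sided, Benjamini-Hochberg over all 27022, threshold 0.05), and 2916 passed. The number of arrays limits the precision, and p-values measure the spread between pools. The code was tested on simulated arrays with known changes. The 9 genes and all lists were chosen with earlier results of these data known. The text names the 9 genes with all their probe sets, Gata6, up to 6 called genes per list, or the 2 of smallest p, the 5 genes most like Ocln and genome neighbours. Same-numbered replicates deviated together at r = 0.13, 0.074 and 0.074. Each of the 6 arrays also correlated best with its own number in the other genotype. The labels state no pairing, so the main fit had no replicate block, and a fit with one is given below. Alternatives covered pseudocount, filter, scaling, variance model, array weights, replicate block, Xist type, each array left out, call rule and probe set rule. Figures used matplotlib 3.10.9 in Python 3.11.15.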

Additional observations from a re-analysis of the deposited data

How the results depend on the processing

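Ocln and Lsr kept their direction and stayed past the threshold in all 18 alternative settings of the fit, at log2 -4.84 to -3.76 and -3.54 to -2.32. Marveld2 kept its direction in 17 (-1.67 to -0.80, limma adjusted p 0.0069 to 0.16) and lost the call in 8 of them; at the 60th percentile filter it was not tested. Tjp1 passed the threshold in 2 of 18, without Gata6-KO replicate 1 and in the high-Xist arrays alone; in both, Ocln and Lsr were the other genes to pass. F11r, Epcam and Cgn passed in none of theirs, and no difference turned its sign in the settings where its gene was tested (14 for F11r, 13 for Cgn). Cgn was below the filter in the high-Xist arrays, where its difference was -0.27.

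Leaving out single arrays gave 1851 to 2465 called probe sets (2916 with all arrays), 2 to 3 of the 9 genes and 7 to 11 of the other junction genes (12 with all). For Gata6-KO, leaving out replicate 2 gave 1886 probe sets and replicate 3 gave 1851; for Gata6-WT, replicate 2 gave 1879. The other junction genes numbered 7 when replicate 2 or 3 of Gata6-KO or replicate 1 of Gata6-WT was left out. Called probe sets and other junction genes were 1459 and 6 without the variance trend, 1615 and 6 in the high-Xist arrays, 1251 and 6 at an adjusted p under 0.01, and 1256 and 6 with at least a 2-fold change; the cause of the lower counts was not tested for the variance trend. With the replicate number as a block, 3076 probe sets, 2 of the 9 genes and 11 of the other junction genes passed, and each of the 6 arrays correlated best with its own number in the other genotype, a hint from the data and not from the design. Median scaling gave 1706 lower and 1166 higher probe sets, beside 1532 and 1384. Low signals limit what can be seen for Cldn1, Cdh1, Cgn, F11r and Marveld2.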
